A study of Homo sapiens with 6 samples.

Results

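CAP1, the adenylyl cyclase-associated protein that binds actin monomers, was described together with 9 other proteins of the actin cytoskeleton: the cytoplasmic actins ACTB and ACTG1, the monomer-binding proteins PFN1 and TMSB10, the filament-disassembling proteins CFL1, WDR1 and CORO1A, the severing protein GSN and the bundling protein LCP1. The genes were selected on the counts in KD, because CAP1 held the most counts of any gene there, so the level of CAP1 is given as a description with no test. All 10 are rows among the 61267 genes of the deposited count table, and all 10 passed the filter on low counts. RNA was sequenced from the human monocytic leukemia line THP-1 after PMA (a phorbol ester that makes these cells adhere) at 100 ng/ml for 48 h. Of 6 libraries, 3 were labelled NC and 3 KD, both groups had received PMA, and the labels name neither a target nor a reagent for KD. The series title names METTL1, the methyltransferase that places 7-methylguanosine in RNA, macrophages and acute inflammation. Below, NC and KD stand for the libraries labelled so. The labels do not say whether the libraries of a group come from separate cultures; if they do not, the p-values cover technical spread only.

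Actin exists as monomers and as filaments that grow at one end and shrink at the other. Cofilin (CFL1) binds aged filament stretches and severs them, and WDR1 (also called AIP1) and coronins such as CORO1A help it. CAP1 works with cofilin at the shrinking end and then reloads the freed monomer with ATP, after which profilin (PFN1) hands it to growing ends and thymosins such as TMSB10 hold it in reserve. Gelsolin (GSN) severs and caps filaments when calcium rises, and L-plastin (LCP1), made mainly in blood cells, ties filaments into bundles. Macrophages use this cycle to spread, to migrate and to engulf particles.

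Total counts ran from 37628972 to 42970216 per library. Levels are CPM, counts divided by the library total in 1e6 counts, the total being scaled by TMM (the trimmed mean of log ratios between libraries), and are given as mean ± SD over 3 libraries. METTL1 had a level of 14.8 ± 1.01 in NC and 13.7 ± 0.605 in KD, and the groups overlapped (log2 fold change -0.10, SE 0.076, edgeR adjusted p = 0.216). With library sizes alone METTL1 passed as lower in KD (log2 fold change -0.29, edgeR adjusted p = 0.00249), and on a leukocyte scale, defined below, it was -1.19 (adjusted p = 1.39e-14). The label of the cell line was checked with marker genes, summed as CPM over library size. All 10 monocyte and macrophage markers had counts in both groups, led by CD68, CSF1R and SPI1. Their sums were 1000.02 to 1062.05 CPM in NC and 1748.34 to 1814.22 CPM in KD. MPO was nearly absent, with 3, 0 and 4 counts in NC and 0, 2 and 4 in KD. On the leukocyte scale CD68 and LYZ were lower in KD (log2 fold changes -0.32 and -0.59). CD14, CD33, SPI1 and PTPRC were higher there, and ITGAM, CSF1R and CD163 did not pass. Markers of HEK293-type, neural and epithelial cells, which are not typical of THP-1 cells, summed to 2839.5 to 3176.8 CPM in NC, with 17 of 17 counted and NEFM, DSP and IRS4 leading, and to 37.0 to 43.01 CPM in KD, where 14 of 17 were counted and LIN28B, POU3F3 and ID4 were at 0. Thus all 3 NC libraries go in part against their label, and no comparison without such libraries can be made. Among these 17 markers NEFM was the largest in NC, with a TMM-scaled level of 1595.5 ± 198.1. Against the sum, ZIC2 rose from a mean of 7.93 to 9.78 on that scale (edgeR adjusted p = 0.00742). KRT19 did not pass (means 0.812 for NC, 0.813 for KD). On the leukocyte scale both were lower in KD (log2 fold changes -0.79 and -1.08). The other listed markers were lower in KD on both scales. Fibroblast and muscle markers were low in both groups, at 20.4 to 23.6 CPM in NC and 15.6 to 17.0 CPM in KD. LUM was at 0 in KD but had only 6 counts in NC. ACTA2 and COL1A1 passed as lower in KD on the TMM scale. Against this sum, MYH11 rose from a mean of 1.37 to 5.68 on the TMM scale (edgeR adjusted p = 2.84e-11). It was also higher on the leukocyte scale (log2 fold change 0.96). The part of these markers in the differences below was not tested, and in bulk RNA fewer cells of a type and less RNA per cell cannot be told apart.

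Between the groups 76.5% of the 21905 tested genes passed an edgeR adjusted p of 0.05, with 36.2% higher and 40.3% lower in KD. The log2 fold changes depend on what the libraries are scaled to, so values on the TMM scale are set beside a leukocyte scale. This is TMM computed over a list of genes known mainly from white blood cells (59 listed, 56 tested, 52 of them higher in KD on the TMM scale). The leukocyte scale takes most of these genes as equal between the groups, which was not tested. On that scale 4.96% of the tested genes were higher in KD and 80.5% lower. The median log2 fold change of all tested genes was -0.05 on the TMM scale, -0.23 with library sizes alone and -1.13 on the leukocyte scale.

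CAP1 (chromosome 1, 40040233 to 40072649, plus strand, GRCh38) held 273993, 235139 and 284175 counts in the NC libraries and 660161, 630607 and 630205 counts in the KD libraries. It was the most counted gene in each KD library and the 5th or 6th in the NC libraries. Its share of all counts was 0.658% ± 0.0314 in NC and 1.52% ± 0.0229 in KD (SD, n = 3 each). YBX1, a cold-shock RNA-binding protein and the next gene in KD, held 1781367 counts over the 3 KD libraries against 1920973 for CAP1, and in each NC library YBX1 had more counts than CAP1. MT-RNR2 (mitochondrial ribosomal RNA), HSP90AB1 (a chaperone) and IL1B (an inflammatory cytokine) followed with 1135405, 983848 and 821289 counts in KD. Read per kilobase of exon, CAP1 ranked 8th or 9th in the KD libraries and 29th or 30th in NC.

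The TMM-scaled level of CAP1 averaged 6175 ± 394 CPM over the NC libraries and 16276 ± 435 CPM over the KD libraries, so that KD was 2.64-fold higher. The log2 difference was 1.40 on the TMM scale, 1.21 with library sizes alone and 0.31 on the leukocyte scale. No annotated gene shares exon bases with CAP1, and its 2 pseudogene rows together held 0.0185% of its counts in NC and 0.0076% in KD. The 10 genes together took 1.08% to 1.12% of all counts in NC and 2.27% to 2.34% in KD. CAP1 alone made up 58.0% to 61.5% of these counts in NC and 65.8% to 66.3% in KD.

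The promoter of CAP1 is shown since this gene leads the group, with those of LCP1 and ACTG1 for comparison, as LCP1 had the log2 difference closest to that of CAP1 and ACTG1 a smaller one. The windows are the 250 bases before the RefSeq start site (GRCh38.p14), chr1:40039990-40040239 on the plus strand, chr13:46182178-46182427 on the minus strand and chr17:81512800-81513049 on the minus strand, written 5′ to 3′ on the gene's strand. Capitals mark matches, on either strand, to the SRF-binding CArG box, to GGGCGG, to TATAAA or to GAGGAAG; matches to GGGCGG may overlap.
CAP1: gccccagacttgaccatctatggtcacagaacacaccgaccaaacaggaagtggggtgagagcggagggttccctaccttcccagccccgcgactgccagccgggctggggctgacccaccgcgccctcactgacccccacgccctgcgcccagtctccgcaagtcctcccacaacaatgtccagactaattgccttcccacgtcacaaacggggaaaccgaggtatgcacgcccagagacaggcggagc
LCP1: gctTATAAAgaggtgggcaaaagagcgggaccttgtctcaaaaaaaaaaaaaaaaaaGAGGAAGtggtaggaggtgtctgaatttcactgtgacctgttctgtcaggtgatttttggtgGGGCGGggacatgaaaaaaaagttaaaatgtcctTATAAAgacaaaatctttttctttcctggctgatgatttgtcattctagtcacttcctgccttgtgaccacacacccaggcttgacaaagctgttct
ACTG1: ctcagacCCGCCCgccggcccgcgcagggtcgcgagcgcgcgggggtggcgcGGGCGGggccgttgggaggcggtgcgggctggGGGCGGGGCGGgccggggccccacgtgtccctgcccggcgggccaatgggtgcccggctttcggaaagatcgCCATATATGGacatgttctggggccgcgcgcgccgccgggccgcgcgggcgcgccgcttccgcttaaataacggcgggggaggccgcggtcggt
The CAP1 window held none of these 4 motifs. The LCP1 window held TATAAA at 247 and 97 bases before the start, GAGGAAG at 193 and GGGCGG at 131. The ACTG1 window held a CArG box at 94 bases before the start and 4 copies of GGGCGG. Over the same length, 1.16% of 35116 RefSeq promoters held a CArG box, 42.6% held GGGCGG, 10.7% held TATAAA and 11.2% held GAGGAAG. The promoter table held 9 of the 10 genes, without ACTB. Among the 9, only ACTG1 had a CArG box and only LCP1 had TATAAA or GAGGAAG, while GGGCGG was in all but CAP1. A single window was searched per gene, and other start sites were not. The deposited exons of LCP1 and ACTG1 begin upstream of their windows, at 46211871 and 81523847. The GSN window ends at 121201482, before its first deposited exon base at 121207794. The windows of CAP1 and LCP1 were 63.6% and 41.2% G or C and that of ACTG1 78.8%, against a median of 58.0% over all promoters.

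**Figure D1:**
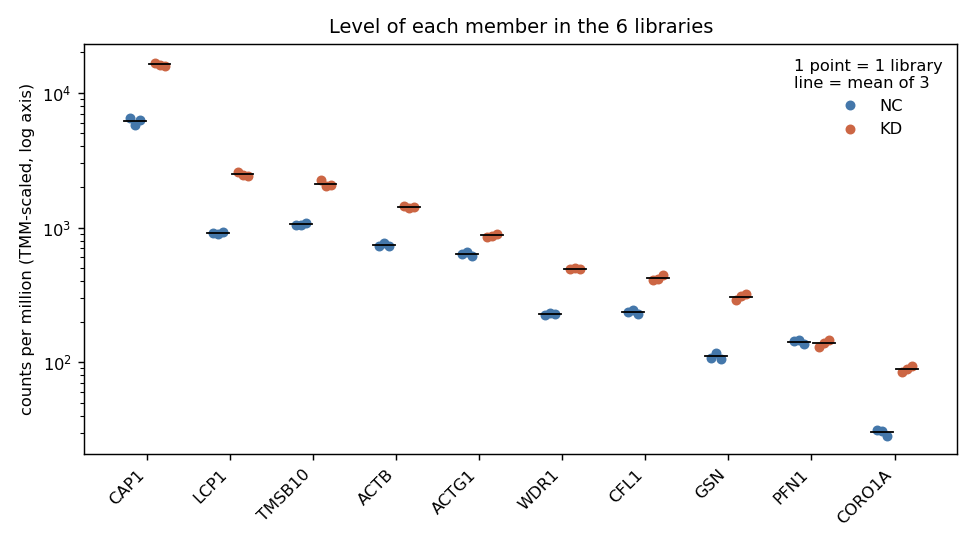
Level of each gene in the 6 libraries, as TMM-scaled CPM on a log axis, with NC in blue, KD in orange, 1 point per library and a line at the mean of 3. The KD points lie above the NC points for every gene but PFN1, whose groups overlap.

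Of the 9 genes other than CAP1, 8 were higher in KD, 0 were lower and 1, PFN1, did not pass the test (edgeR, Benjamini-Hochberg adjusted over all 21905 tested genes), against 36.2% higher and 40.3% lower among all tested genes. Their median log2 fold change was 1.00, beside -0.05 for all tested genes. The same 8 had groups that did not overlap, as did 78% of all tested genes. On the leukocyte scale the split was 3 higher (LCP1, CORO1A and GSN), 4 lower (CFL1, PFN1, ACTB and ACTG1) and 2 that did not pass (TMSB10 and WDR1), and the median was -0.09. Among all tested genes 4.96% were higher and 80.5% lower on that scale, with a median of -1.13.

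The actins came first by role. ACTB (chromosome 7, 5526409 to 5563902, minus strand), the beta actin of non-muscle cells, stood at 726, 767 and 724 CPM in NC and at 1438, 1389 and 1422 CPM in KD. All KD libraries were above all NC libraries. Its log2 fold change was 0.94 (SE 0.043, edgeR adjusted p = 4.92e-16) on the TMM scale and -0.15 (adjusted p = 0.00302) on the leukocyte scale. ACTG1 (chromosome 17, 81509413 to 81523847, minus strand), the gamma actin that co-assembles with it, stood at 641, 661 and 618 CPM in NC and at 854, 867 and 898 CPM in KD. The groups did not overlap, and the log2 fold change of 0.45 (SE 0.043, edgeR adjusted p = 9.14e-10) turned to -0.64 on the leukocyte scale.

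The 2 actin messages are similar enough that short reads within the coding part may not always be assigned to the right gene, and the treatment of such reads is not named in the labels. Their coding sequences were identical at 91.2% of 1128 bases, and the longest identical stretch was 59 bases. The first 60 coding bases (GENCODE 29, GRCh38) are shown to let the 2 genes be compared, with the 10 differing bases in capitals.
ACTB: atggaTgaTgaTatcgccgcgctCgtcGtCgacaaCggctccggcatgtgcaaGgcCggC
ACTG1: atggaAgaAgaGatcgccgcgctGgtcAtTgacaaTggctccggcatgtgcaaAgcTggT
Their noncoding parts differ, and the exon length of 4405 bases for ACTB and 4052 for ACTG1 includes them. ACTG1 had 0.882, 0.862 and 0.854 counts for each count of ACTB in the NC libraries and 0.594, 0.624 and 0.632 in the KD libraries.

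Among the monomer-binding proteins, PFN1 (chromosome 17, 4945652 to 4949061, minus strand) stood at 145, 146 and 136 CPM in NC and at 129, 139.8 and 147 CPM in KD. The groups overlapped. Its log2 fold change was -0.04 (SE 0.046, edgeR adjusted p = 0.477) on the TMM scale, -0.22 (adjusted p = 4.65e-04) with library sizes alone and -1.13 on the leukocyte scale. PFN1 was thus the one gene of the 10 near the median of all tested genes. That this held on each of the 3 scales follows from the scaling, which moves all genes alike. PFN1 shares 111 of its 1599 exon bases with ENO3 on the opposite strand, whose counts were 28.3% to 31.0% of those of PFN1, and with no stated strand setting the reads on these bases cannot be told apart. Its 10 pseudogene rows held 1.84% of its counts in NC and 1.41% in KD.

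TMSB10 (chromosome 2, 84905656 to 84906671, plus strand), a small thymosin, stood at 1046.5, 1049.5 and 1087.5 CPM in NC and at 2253, 2049.9 and 2062 CPM in KD. Each KD library held more than each NC library. The log2 fold change was 1.00 (SE 0.047, edgeR adjusted p = 6.22e-16) on the TMM scale and -0.09 (adjusted p = 0.0817) on the leukocyte scale.

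Of the disassembly proteins, CFL1 (chromosome 11, 65823022 to 65862026, minus strand) stood at 238, 244 and 229 CPM in NC and at 409, 414 and 440.4 CPM in KD. The groups were apart, and the log2 fold change of 0.83 (SE 0.043, edgeR adjusted p = 4.81e-15) was -0.26 on the leukocyte scale. Its partner WDR1 (chromosome 4, 10068089 to 10116972, minus strand) stood at 226, 233 and 227 CPM in NC and at 489, 503 and 491 CPM in KD. The log2 fold change of WDR1 was 1.11 (SE 0.040, edgeR adjusted p = 3.46e-18) on the TMM scale and 0.02 (adjusted p = 0.610) on the leukocyte scale. CFL1 shares 357 exon bases with SNX32 and 759 with MUS81, both on the opposite strand. SNX32 held 48.2% to 50.4% as many counts as CFL1 in every library, so the counts of the 2 genes cannot be told apart where they overlap.

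CORO1A (chromosome 16, 30182827 to 30189076, plus strand), the coronin of white blood cells, stood at 31.2, 30.8 and 28.4 CPM in NC. In KD it stood at 84.2, 88.9 and 93.0 CPM, above every NC library. The log2 fold change was 1.56 (SE 0.050, edgeR adjusted p = 3.77e-19) on the TMM scale and 0.47 (adjusted p = 1.35e-09) on the leukocyte scale. An antisense gene, CORO1A-AS1, shares 532 of its 4779 exon bases and held 8.65% to 11.7% as many counts.

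GSN (chromosome 9, 121207794 to 121332843, plus strand) stood at 108, 118 and 105 CPM in NC and at 289, 310.2 and 322 CPM in KD. The groups did not overlap. Its log2 fold change was 1.48 (SE 0.048, edgeR adjusted p = 4.28e-19) on the TMM scale and 0.39 (adjusted p = 1.47e-08) on the leukocyte scale.

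LCP1 (chromosome 13, 46125920 to 46211871, minus strand) stood at 909.8, 898 and 933 CPM in NC and at 2583, 2457 and 2408 CPM in KD. Each KD library held more than each NC library. Its log2 fold change was 1.44 (SE 0.045, edgeR adjusted p = 2.21e-19) on the TMM scale and 0.35 (adjusted p = 3.42e-08) on the leukocyte scale. LCP1 shares 965 of 5076 exon bases with CPB2-AS1 on the opposite strand, which held 50.8% to 52.9% as many counts as LCP1 in every library, and whose reads there cannot be told apart from those of LCP1.

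**Figure D2:**
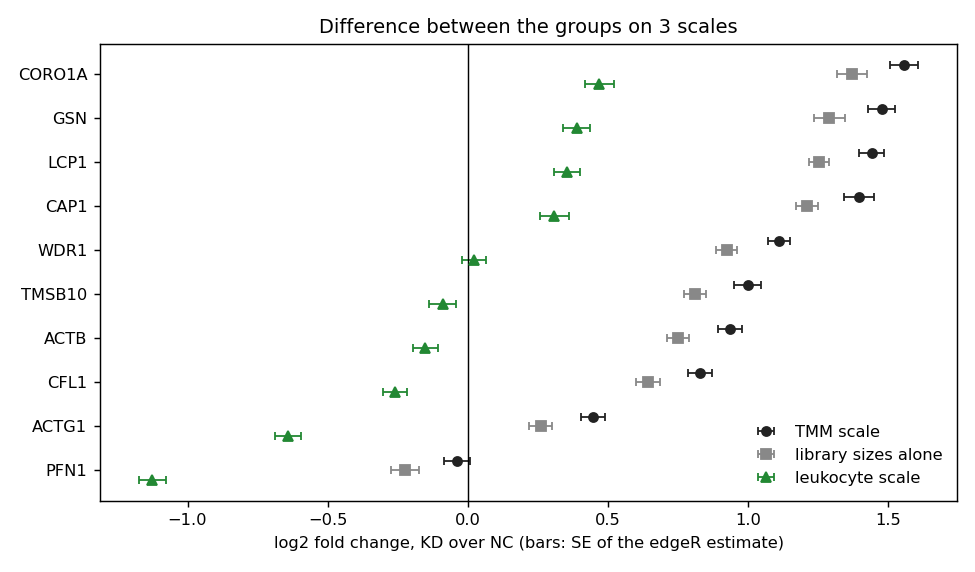
Log2 fold change of each gene, KD over NC, on the TMM scale (black), with library sizes alone (grey) and on the leukocyte scale (green), with bars for the SE of the edgeR estimate. On the TMM scale all but PFN1 lie above 0, and on the leukocyte scale CFL1, ACTB, ACTG1, TMSB10 and PFN1 lie below 0.

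Compared as CPM per kilobase of merged exons, TMSB10 and CAP1 were the most abundant of the 10 in both groups, at 2302 and 1619 CPM per kilobase in NC and at 4602 and 4267 in KD. LCP1, ACTB, ACTG1 and PFN1 followed in NC, at 180.0, 168, 158 and 88.9 CPM per kilobase. In KD the same 4 kept this order, at 489, 321, 215 and 86.7 CPM per kilobase. CFL1 stood at 40.4 and 71.8 CPM per kilobase in NC and KD, and WDR1, GSN and CORO1A lay between 6.30 and 12.4 in NC and between 18.6 and 27.8 in KD. The neighbours GSN and WDR1 changed places, with 9.97 and 12.4 CPM per kilobase in NC and 27.8 and 26.8 in KD, a gap in KD that was within the SD over libraries of GSN (1.504). The merged exon length of WDR1, 18461 bases, exceeds that of its longest coding transcript, 3142 bases (GENCODE 29), which lowers its value on this scale. The lengths also differ for LCP1 (5076 and 3944 bases), ACTB (4405 and 1921) and CFL1 (5865 and 1878). For TMSB10 the merged exons are the shorter (461 and 496). The order above therefore holds for merged exons only and may change with another length. The pseudogene rows also differ, with 21 for ACTG1, 12 for ACTB, 10 for PFN1 and 8 for CFL1. CAP1 and TMSB10 have 2 each, and LCP1, CORO1A, WDR1 and GSN have 0. How reads that match several places were counted is not named, and their part in this order was not tested. The longest coding transcripts of the 10 were 45.4% (LCP1) to 63.3% (CORO1A) G or C, with CAP1 at 50.1%, beside a median of 49.0% over 14281 tested coding genes.

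Counts were also set against ACTB within each library, a ratio that no scaling of libraries can move. Relative to ACTB, CORO1A was higher in KD by a log2 difference of 0.62, GSN by 0.54, LCP1 by 0.50 and WDR1 by 0.17, with no overlap between the groups. CAP1 had 8.95, 7.47 and 8.69 counts per count of ACTB in NC and 11.7, 11.6 and 11.2 in KD, a log2 difference of 0.46, given with no test. Relative to ACTB, ACTG1 had a log2 difference of -0.49, PFN1 of -0.98 and CFL1 of -0.11, again with no overlap, whereas for TMSB10 the groups overlapped (0.06, exact permutation p = 0.4). For the 7 ratios without overlap the two-sided exact permutation p was 0.1, the smallest that 3 against 3 libraries allow, and 0.114 after Benjamini-Hochberg adjustment over 8 ratios, so none passed 0.05. With ACTG1 in the place of ACTB the difference of CFL1 turned to 0.38, and the other signs were kept.

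**Figure D3:**
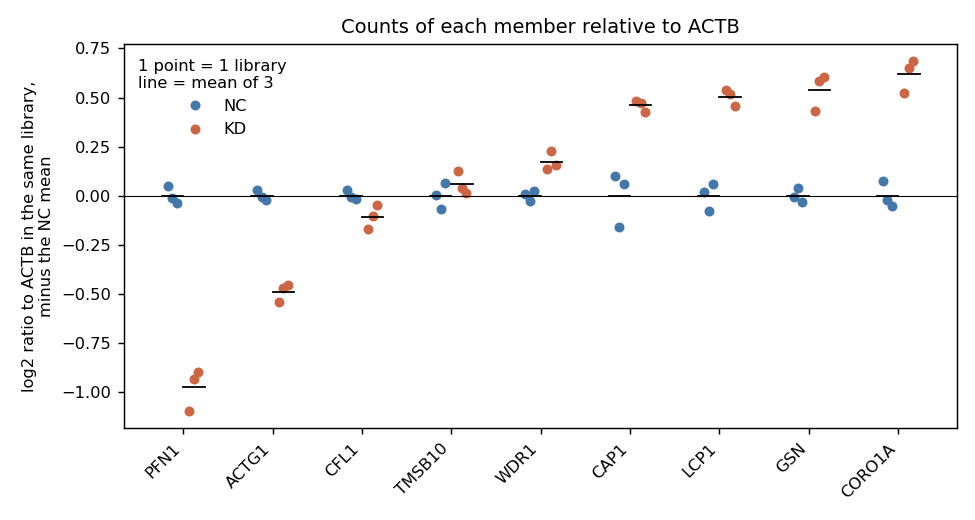
Log2 of the counts of each gene over those of ACTB in the same library, less the NC mean, with NC in blue, KD in orange and a line at the mean of 3. CORO1A, GSN, LCP1 and CAP1 sit above 0 in KD, PFN1 and ACTG1 below 0, and CFL1, below 0 here, is above 0 when set against ACTG1.

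The pattern of CAP1 over the 6 libraries was compared with those of 1837 protein-coding genes with a mean of at least 100 CPM. The measure was the Euclidean distance between log2 CPM values, each centred on its own mean. The 5 genes nearest to CAP1 were MYO10 (distance 0.0582), OSGIN2 (0.0604), TNIP1 (0.0741), DDX60L (0.0868) and TRIO (0.0875). Of the actin genes described here LCP1 was nearest, at rank 30, followed by GSN at 185, WDR1 at 245, TMSB10 at 323, ACTB at 372, CFL1 at 461, ACTG1 at 790 and PFN1 at 1259. CORO1A lay below the limit of 100 CPM. The distance reflects mainly the size of the difference between the 2 groups of 3 libraries.

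Some close relatives of the 10 genes had differences of the opposite sign. Of 28 paralogs listed, 25 were tested, of which 10 were higher in KD, 12 were lower and 3 did not pass the test (edgeR), beside the 36.2% higher and 40.3% lower of all tested genes. On the leukocyte scale 2 were higher and 21 lower, beside 4.96% and 80.5% of all tested genes. CAP2, the muscle and brain relative of CAP1, fell from 6.89 ± 0.154 to 2.84 ± 0.453 CPM (log2 fold change -1.28, SE 0.13, edgeR adjusted p = 2.35e-09; -2.37 on the leukocyte scale). CFL2, the muscle cofilin, fell from 28.2 ± 0.80 to 7.76 ± 0.503 CPM. DSTN, which also takes filaments apart, averaged 156 ± 7.34 CPM over NC libraries and 181 ± 8.15 CPM over KD libraries, with a log2 fold change of 0.22 that was 0.03 (adjusted p = 0.510) with library sizes alone and -0.87 on the leukocyte scale.

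PFN2, the profilin known from neurons, had 30.4, 31.9 and 28.7 CPM in NC and 0.254, 0.357 and 0.659 CPM in KD. Its level was 71.7-fold lower in KD, with no overlap and a log2 fold change of -6.15 (SE 0.14, edgeR adjusted p = 6.10e-22; -7.24 on the leukocyte scale), beside the overlapping values of PFN1. PFN4, a low-level profilin with 14, 28 and 46 counts in NC and 6, 2 and 0 in KD, had a log2 fold change of -3.27 (SE 0.62, edgeR adjusted p = 4.38e-05), which was -4.58 without KD replicate 1. ACTA2, the smooth muscle actin, fell from 4.77 ± 0.343 to 0.0931 ± 0.0730 CPM, the latter from 2, 2 and 7 counts. Its log2 fold change of -5.63 was -6.46 without KD replicate 3. The skeletal muscle actin ACTA1 averaged 1.78 ± 0.545 CPM over NC libraries and 1.60 ± 0.328 CPM over KD libraries and did not pass the test, although on the leukocyte scale it did (log2 fold change -1.23, edgeR adjusted p = 1.34e-05). ACTC1, ACTG2 and ACTBL2 did not pass the filter on low counts. The cardiac actin ACTC1 had 6.59 CPM in the first NC library and at most 0.356 CPM in the other 5, and ACTBL2 had no count in KD and was at least 3.68-fold lower there, with KD set at a floor of 3 counts over the group.

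The other plastins went the opposite way to LCP1. PLS3, the plastin of solid tissues, fell from 406, 375 and 381 CPM in NC to 30.4, 32.5 and 30.5 CPM in KD. The log2 fold change of PLS3 was -3.64 (SE 0.049, edgeR adjusted p = 1.59e-26). PLS1, the intestinal plastin, fell from 23.4 ± 0.959 to 1.13 ± 0.105 CPM. On the leukocyte scale their differences kept the same sign, at -4.72 for PLS3 and -5.46 for PLS1.

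Among coronins, CORO2B rose like CORO1A, from 10.5 ± 0.514 to 30.5 ± 1.80 CPM (log2 fold change 1.54 on the TMM scale and 0.45 on the leukocyte scale). CORO1B, CORO1C and CORO7 had log2 fold changes of 0.75, 0.80 and 0.79 on the TMM scale, which turned to -0.34, -0.29 and -0.30 on the leukocyte scale. CORO2A and CORO6 fell, by 0.57 and 1.77 on the log2 scale, and CORO6, with few counts, had -2.39 without KD replicate 2. Of the thymosins, TMSB4X, known as the main monomer-holding protein of blood cells, rose from 153 ± 2.59 to 388 ± 7.54 CPM (log2 fold change 1.34, SE 0.040, edgeR adjusted p = 9.69e-20, and 0.25 on the leukocyte scale). In these libraries its level was below that of TMSB10 in both groups (1061.1 CPM in NC and 2121.5 CPM in KD). TMSB15A and TMSB15B, with at most 1.27 CPM in any library, fell by 3.32 and 2.14 on the log2 scale, and without KD replicate 1 these differences were -4.02 and -2.83.

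Within the gelsolin family, CAPG, a capping protein of macrophages, rose from 69.0 ± 1.48 to 145 ± 3.75 CPM (log2 fold change 1.07, but -0.02 on the leukocyte scale). SVIL, which anchors actin to membranes, had a log2 fold change of 1.01 on the TMM scale and -0.08 on the leukocyte scale. AVIL had 0.62 and -0.47, with adjusted p = 0.0521 with library sizes alone, and VIL1, the villin of microvilli, fell by 0.67 on the log2 scale. FLII differed least among those that passed, at 0.09 (edgeR adjusted p = 0.0411). It did not pass with a replicate block (adjusted p = 0.0766), with no filter (0.101) or by the DESeq2 Wald test (0.0559). Nor did it pass without NC replicate 1 (0.146), NC replicate 2 (0.0905), KD replicate 1 (0.133) or KD replicate 2 (0.0763). With library sizes alone FLII passed as lower in KD, at -0.09 (edgeR adjusted p = 0.0240), and on the leukocyte scale it was -0.995. SCIN and VILL, with log2 fold changes of 0.40 and 0.08, did not pass, and on the leukocyte scale both were lower (-0.69 and -1.01).

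**Figure D4:**
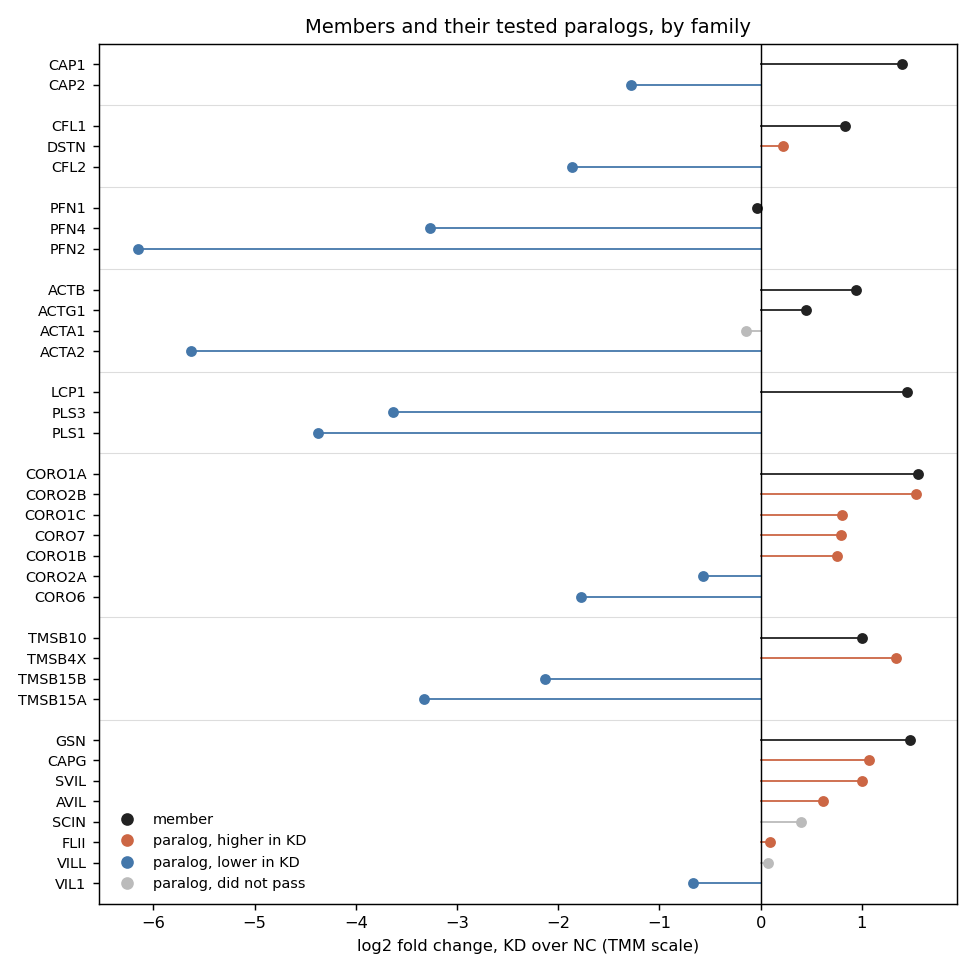
Log2 fold change of each gene (black) and of its tested paralogs, KD over NC on the TMM scale, grouped by family, with paralogs in orange where higher, blue where lower and grey where they did not pass. PFN2 at -6.15, ACTA2 at -5.63, PLS1 at -4.37 and PLS3 at -3.64 lie far left of their relatives, and on the leukocyte scale all paralogs but CORO2B and TMSB4X are below 0.

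A wider list of 148 actin regulators in 12 groups by role was read from the same fit. Of the 140 tested genes other than CAP1, 84 were higher in KD (60%, against 36.2% of all tested genes), 44 were lower (31.4%, against 40.3%) and 12 did not pass. Their median log2 fold change was 0.51, beside -0.05 for all tested genes. On the leukocyte scale 17 were higher (12.1%, against 4.96% of all tested genes) and 109 lower (77.9%, against 80.5%). The median there was -0.58 beside -1.13 for all tested genes. Most of the markers of HEK293-type, neural and epithelial cells given above differed in the same comparison, and their part in these counts was not tested.

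In the cofilin and disassembly group 11 of 14 genes were higher and 3 lower on the TMM scale, against 3 and 10 on the leukocyte scale. These and the following counts stand beside 36.2% higher and 40.3% lower among all tested genes on the TMM scale and 4.96% and 80.5% on the leukocyte scale. GMFG, which takes apart branches made by the Arp2/3 complex in blood cells, rose from 17.3 ± 0.533 to 44.8 ± 0.920 CPM (log2 fold change 1.37, leukocyte scale 0.28), and COTL1, a cofilin-like protein, had a log2 fold change of 0.94 on the TMM scale and -0.14 on the leukocyte scale. Among the kinases and phosphatases that switch cofilin off and on, 4 of 8 were higher and 2 lower on the TMM scale, against 1 and 7 on the leukocyte scale. LIMK1, which inactivates cofilin, rose by a log2 fold change of 1.28 (leukocyte scale 0.19). The phosphatases SSH1 and SSH2, which reactivate it, had 0.62 and 0.53 on the TMM scale and -0.46 and -0.55 on the leukocyte scale. Of 10 tested monomer-binding proteins other than CAP1, 3 were higher (TMSB4X, TMSB10 and TWF2) and 6 lower on the TMM scale, against 1 and 8 on the leukocyte scale. TWF2 (twinfilin) had 0.96 on the TMM scale and -0.13 on the leukocyte scale.

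The Arp2/3 complex, which nucleates branched filaments, had 8 of 11 genes higher and 3 lower on the TMM scale and 0 higher on the leukocyte scale, where 10 were lower. Its subunits ACTR3 and ARPC5 had log2 fold changes of 0.99 and 0.92 on the TMM scale and -0.10 and -0.17 on the leukocyte scale. ARPIN, which inhibits the complex, fell from 33.5 ± 1.81 to 2.40 ± 0.444 CPM, a log2 fold change of -3.80 (SE 0.097, edgeR adjusted p = 4.77e-21; -4.89 on the leukocyte scale).

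Of the WASP, WAVE and cortactin group, which activates Arp2/3, 10 of 17 were higher and 6 lower on the TMM scale, against 2 and 14 on the leukocyte scale. NCKAP1L, the WAVE subunit of blood cells, rose from 93.7 ± 2.74 to 254 ± 2.11 CPM (log2 fold change 1.44, leukocyte scale 0.35), while NCKAP1, its relative of other tissues, fell from 88.1 ± 0.679 to 46.4 ± 1.59 CPM. HCLS1, the cortactin of blood cells, rose from 374 ± 17.9 to 983 ± 58.3 CPM (1.39, leukocyte scale 0.31), while CTTN, cortactin itself, fell from 446 ± 17.4 to 294 ± 15.1 CPM. NCKAP1 and CTTN were picked as partners after their values were seen. WASF3 fell from 9.97 ± 1.15 to 0.110 ± 0.0640 CPM.

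Among formins, spire and Ena/VASP proteins, which lengthen filaments, 12 of 19 were higher and 7 lower on the TMM scale, against 3 and 14 on the leukocyte scale. VASP rose from 176 ± 2.53 to 514 ± 7.13 CPM (log2 fold change 1.54, SE 0.041, edgeR adjusted p = 7.41e-21; leukocyte scale 0.46). Its relative ENAH, by contrast, had 469, 416 and 478 CPM in NC and 18.9, 17.0 and 17.8 CPM in KD. ENAH thus fell by 4.66 on the log2 scale, and the formin DIAPH3 fell by 2.61, and on the leukocyte scale the differences were -5.75 and -3.70.

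Of the bundling and crosslinking proteins 7 of 16 were higher and 8 lower on the TMM scale, against 3 and 12 on the leukocyte scale. FLNA, the filamin that links filaments into networks, had 198, 213 and 201 CPM in NC and 1.98, 2.45 and 2.99 CPM in KD. It was 82.4-fold lower in KD (log2 fold change -6.36, SE 0.075, edgeR adjusted p = 3.09e-27), and FLNC, the muscle filamin, fell by 4.03 on the log2 scale. With leukocyte scaling FLNA stood at -7.45 and FLNC at -5.12. Tropomyosins, which coat filaments, and their relatives had 4 of 8 genes higher and 3 lower on the TMM scale, against 0 and 7 on the leukocyte scale, with TPM4 at a log2 fold change of 1.15 (0.06 on the leukocyte scale, where it did not pass) and TPM1 at -0.98 (-2.07 on the leukocyte scale). CNN3, a calponin, fell from 58.5 ± 5.86 to 0.983 ± 0.368 CPM.

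In the gelsolin and capping group 10 of 16 genes were higher and 4 lower on the TMM scale, against 1 and 13 on the leukocyte scale. TMOD2, a neuronal cap of the shrinking end, fell by 2.89 on the log2 scale (-3.98 on the leukocyte scale). Membrane linkers and adhesion adaptors had 10 of 14 higher and 1 lower on the TMM scale, against 3 and 7 on the leukocyte scale, where 4 did not pass. FERMT3, the kindlin of blood cells that activates integrins, rose from 138 ± 4.52 to 376 ± 3.62 CPM (log2 fold change 1.45, leukocyte scale 0.36). LASP1 rose by 1.23 (leukocyte scale 0.14), and TLN1, talin, had 1.04 on the TMM scale and -0.04 on the leukocyte scale. SRF and its coactivators MRTFA and MRTFB, which read the pool of actin monomers, had 0.67, 0.51 and 0.40 on the TMM scale and -0.42, -0.58 and -0.69 on the leukocyte scale.

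**Figure D5:**
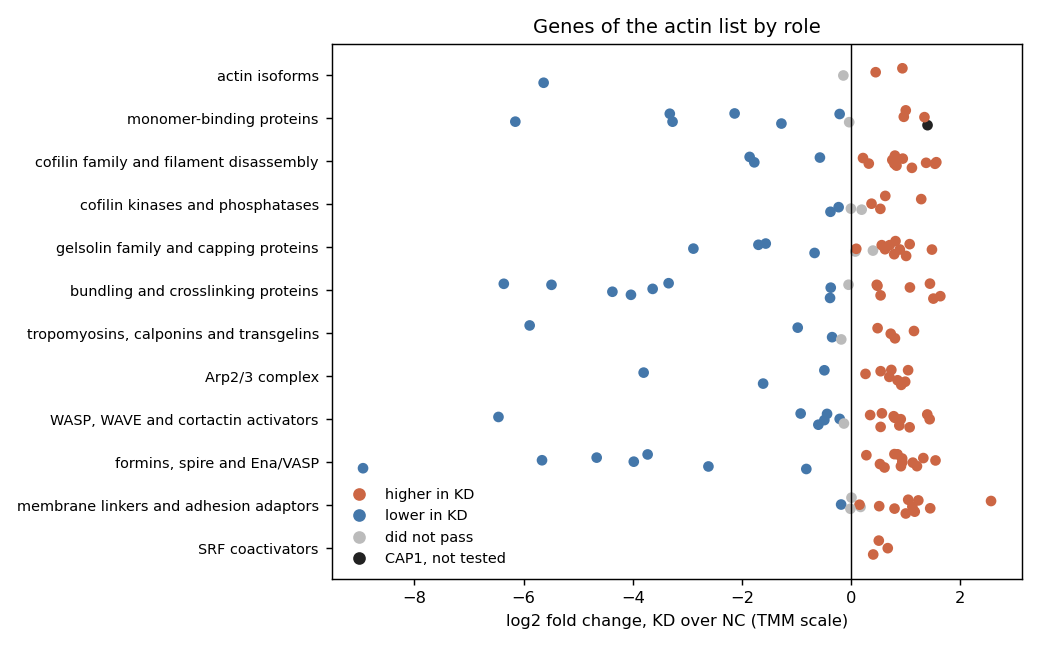
Log2 fold change of each tested gene of the actin list, KD over NC on the TMM scale, by role, in orange where higher, blue where lower, grey where it did not pass and black for CAP1. In 6 of the 12 groups the lowest gene lies below -5, and all 3 SRF genes lie above 0. On the leukocyte scale 109 of the 140 tested genes were lower (77.9%, against 80.5% of all tested genes).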

How the data were processed

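Reads were trimmed with fastp 0.23.0 and referred to GRCh38, per the submitters' processing notes. Aligner, counter, annotation and strand setting are not named in those notes or the labels. The table deposited by the authors holds whole-number counts per gene for 61267 genes and 6 libraries, 37628972 to 42970216 counts each, grouped as labelled. Of the counts between 1 and 20, even numbers made up 67.8% to 70.3%, while above 1000 they made up 50.2% to 51.4%. Counts may therefore hold fewer independent fragments than their number. The shares above 1000 do not show that large counts are free of this. No libraries were identical (chi-square per degree of freedom 3.11 to 5.96 within groups).

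The test was that of edgeR 4.0.16, run in R 4.3.3 (robust quasi-likelihood, TMM, filterByExpr, two-sided, Benjamini-Hochberg adjusted over 21905 genes, threshold 0.05). SEs were derived from the fold change and its F statistic. Alternatives were DESeq2 1.42.0 size factors and Wald test, limma 3.58.1 voom, library sizes alone, the leukocyte scale, no filter, a replicate block, counts divided by 2, and each library left out. Same-numbered NC and KD libraries did not deviate together (r 0.027, 0.020 and -0.054). No pairing by number was seen, but 3 libraries per group cannot exclude it. Exon overlaps came from the exon coordinates of the deposited table, transcripts and coding sequences from GENCODE 29 on GRCh38, and promoters from RefSeq.

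The described genes, paralogs, actin list and leukocyte list were chosen with earlier results of these data known. Named beyond the 10 genes are all paralogs, the 3 non-member genes of each actin group with the smallest p, the 5 genes with the most KD counts, the 5 nearest to CAP1 in pattern, METTL1 and the most abundant markers. NCKAP1 and CTTN fall outside this rule and were picked after their values were seen. In a simulation of the KD to NC comparison over 21905 genes, edgeR recovered 58% of genes changed 1.25-fold, 74% at 1.5-fold, 94% at 2-fold and 100% at 4-fold, and called 11 unchanged genes. These figures hold for simulated counts only. They do not cover the choice of scale, which moved the real calls most. They therefore give no rate of false calls for the sequenced libraries. Scripts used Python 3.11.15.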

Additional observations from a re-analysis of the deposited data

How the results depend on the processing

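The scaling moved the results most. On the leukocyte scale the 9 genes other than CAP1 split into 3 higher and 4 lower. The actin list split into 17 higher and 109 lower and the paralogs into 2 higher and 21 lower. Of all tested genes 4.96% were higher and 80.5% lower on that scale. With library sizes alone 1 of the 9 genes, PFN1, was lower. Log2 fold changes turned negative on the leukocyte scale for CFL1 (-0.26), ACTB (-0.15), ACTG1 (-0.64), TMSB10 (-0.089), DSTN (-0.87), CORO1B (-0.34), CORO1C (-0.29), CORO7 (-0.30), SCIN (-0.69), CAPG (-0.02), AVIL (-0.47), SVIL (-0.082), VILL (-1.01), FLII (-0.995), TWF2 (-0.13), COTL1 (-0.14), SSH1 (-0.46), SSH2 (-0.55), ACTR3 (-0.10), ARPC5 (-0.17), TLN1 (-0.044), SRF (-0.42), MRTFA (-0.58) and MRTFB (-0.69). With library sizes alone VILL was -0.11, which did not pass, and FLII -0.095, which passed as lower (edgeR adjusted p = 0.0240). These shifts follow from the scaling, which moves all genes alike. Leaving out a library in turn moved PFN1 from -0.073 to 0.018 (the latter without KD replicate 1), ACTA1 from -0.37 to 0.073 (above 0 without NC replicate 1 or, at 0.023, KD replicate 2) and VILL from -0.018 (without NC replicate 3) to 0.20, none of which passed the test with all libraries. The cause was not tested. The ratio of CFL1 turned to 0.38 with ACTG1 as denominator, and per kilobase CAP1 ranked 29 in NC and 9 in KD. Over the left-out libraries 8 of the 9 genes were higher each time, the actin list had 83 to 85 higher and 43 to 44 lower genes, and the paralogs 9 to 10 higher and 12 lower. A replicate block left 8 of the 9 genes and 83 of the actin list higher, and among the named genes it took away only the call of FLII. With counts divided by 2 fewer genes passed the filter (19667). The actin list then had 84 higher and 42 lower genes and the paralogs 10 higher and 10 lower, and named genes still tested kept their calls. DESeq2 size factors and limma-voom changed no call among the named genes. On the leukocyte scale ACTA1 and METTL1, which had not passed, were lower (-1.23 and -1.19). ACTG2 and ACTBL2 had too few counts for the test.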
